A study of Mus musculus with 16 samples.

Results

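The genes described here are 10 contractile genes of smooth muscle cells and myofibroblasts: Acta2, Actg2, Tagln, Cnn1, Myh11, Myl9, Tpm2, Des, Lmod1 and Synpo2. They were taken by symbol from a count table of 49568 gene symbols, and all 10 had a row in it. The table came from mRNA sequencing of mouse flexor tendon, with 4 groups of 4 libraries. Single tendons of the deep digital flexor of the hind paw were taken from male mice aged 9 to 11 weeks, either without injury or at 7 days post injury (dpi), after a cut across 50% of the tendon width in the 3rd digit. The groups were uninjured and injured tendon of C57BL/6J (C57), the common inbred strain that served as the control healer, and uninjured and injured tendon of MRL/MpJ (MRL), an inbred strain studied for its regenerative healing. No engineered allele is named for either strain, and the injured animals of both strains received ketamine and xylazine anesthesia and buprenorphine. The sheath and peritendinous tissue stayed on the tendons, so each library held RNA of those tissues as well. The labels give the injured libraries names but no replicate number, so the numbers here follow accession order and pair nothing: the injured C57 replicates were BI-181 (replicate 1), BI-183 (2), BI-184 (3) and BI-185 (4), and the injured MRL replicates were BI-270 (replicate 1), BI-272 (replicate 2), BI-274 (replicate 3) and BI-275 (replicate 4).

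Contraction in smooth muscle runs through filaments of smooth muscle actin and myosin, and the proteins of these genes build, anchor or tune those filaments. Acta2 encodes the alpha smooth muscle actin by which myofibroblasts, the contractile fibroblasts of healing tissue, are usually recognized, and it is also a main protein of the muscle cells and pericytes of vessel walls. Myh11 and Lmod1 are more restricted to mature smooth muscle, whereas Tpm2, Des and Synpo2 also serve in skeletal muscle. Serum response factor and its partners, myocardin and the myocardin-related factors, switch on many of these genes through a promoter element called the CArG box, and TGF-beta is a known inducer of Acta2 in fibroblasts.

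In GENCODE M21 (GRCm38) the actin genes lie at chr19:34241090-34255590 on the minus strand (Acta2) and chr6:83512905-83536265 on the minus strand (Actg2). The myosin genes lie at chr16:14194535-14291372 on the minus strand (Myh11) and chr2:156775420-156781658 on the plus strand (Myl9). Tagln (chr9:45929619-45936058, minus) and Cnn1 (chr9:22099216-22109630, plus) share a chromosome, as do Des (chr1:75360329-75368579, plus) and Lmod1 (chr1:135324807-135368065, plus). Tpm2 lies at chr4:43514711-43523765 on the minus strand and Synpo2 at chr3:123076519-123236149 on the minus strand. The members thus fall at separate sites and share no exons with each other. Tagln is the one member whose exons are largely covered by genes of the opposite strand, over 67.9% of its exon bases (Pcsk7 over 5.43% and the antisense gene Gm48529 over 62.4%). Des shares 5.86% of its exon bases with the antisense gene Gm15179, and no other member shares any. The strand setting of the read counting is not given in the sources used here, so the levels of Tagln are uncertain. Of the overlapping genes, Pcsk7 and Gm15179 had a row in the count table and Gm48529 did not.

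RefSeq promoter windows of 250 bases before to 50 bases after the start site (GRCm38.p6) were at hand for 7 of the 10 genes and not for Actg2, Tagln or Myh11. They are shown for Myl9, the one member window with an exact CArG box, for Acta2, the member called between the injured strains in the main test, and for Synpo2, the gene that fell after injury in MRL. The exact CArG box searched (CC, exactly 6 bases of A or T, then GG) reads the same in form on both strands, and its bases are in capitals. The windows are chr2:156775214-156775513 (plus), chr19:34255324-34255623 (minus) and chr3:123236100-123236399 (minus).
Myl9: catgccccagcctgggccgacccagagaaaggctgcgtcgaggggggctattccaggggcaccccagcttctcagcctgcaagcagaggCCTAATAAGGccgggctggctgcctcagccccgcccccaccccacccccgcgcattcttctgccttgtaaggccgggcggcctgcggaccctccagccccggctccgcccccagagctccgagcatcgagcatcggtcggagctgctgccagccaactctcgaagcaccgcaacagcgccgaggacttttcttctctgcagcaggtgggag
Acta2: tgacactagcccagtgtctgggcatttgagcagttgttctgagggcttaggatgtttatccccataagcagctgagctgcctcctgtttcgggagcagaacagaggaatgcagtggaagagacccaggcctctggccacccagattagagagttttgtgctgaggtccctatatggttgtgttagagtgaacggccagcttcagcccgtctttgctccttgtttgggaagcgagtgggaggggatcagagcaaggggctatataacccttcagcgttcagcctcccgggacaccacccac
Synpo2: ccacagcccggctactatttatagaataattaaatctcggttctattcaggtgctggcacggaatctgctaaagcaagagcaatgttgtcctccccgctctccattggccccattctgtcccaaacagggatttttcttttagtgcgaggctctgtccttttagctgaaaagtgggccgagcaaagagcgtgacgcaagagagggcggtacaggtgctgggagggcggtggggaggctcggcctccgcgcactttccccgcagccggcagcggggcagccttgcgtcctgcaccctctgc
In Myl9 the box began 161 bases upstream of the start site. Of all 32851 mouse windows in the same set, 535 (1.63%) held an exact box. The other 6 member windows held no exact box, which says nothing about binding of serum response factor there.

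Sequencing depth was 12552424 to 23741648 counts per library, and the injured MRL libraries were the deepest (18524170 to 23741648). A count of 0 in a library therefore allows up to 0.124 to 0.239 CPM, taken as 3 counts per library, which covers counting error only. CPM, the standard scaling of counts by library size, was computed on sizes adjusted by the trimmed mean of M values (TMM). Markers of tenocytes, among them Scx, Tnmd, Fmod and Dcn, summed to 2.58 to 8.16% of counts, and the tissue label was met in every library. Some C57 libraries stood apart. Skeletal muscle markers (12 genes such as Acta1, Ckm and Myh1) took 7.40% of the counts of BI-181 and 0.235% of BI-183, against at most 0.00176% in each of the other 14 libraries. Epidermal markers took 9.70% of the counts of C57 uninjured replicate 4 and at most 0.118% in any other library. The members' results that rest on BI-181, BI-183 or C57 uninjured replicate 4 are therefore given with and without them.

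**Figure D1:**
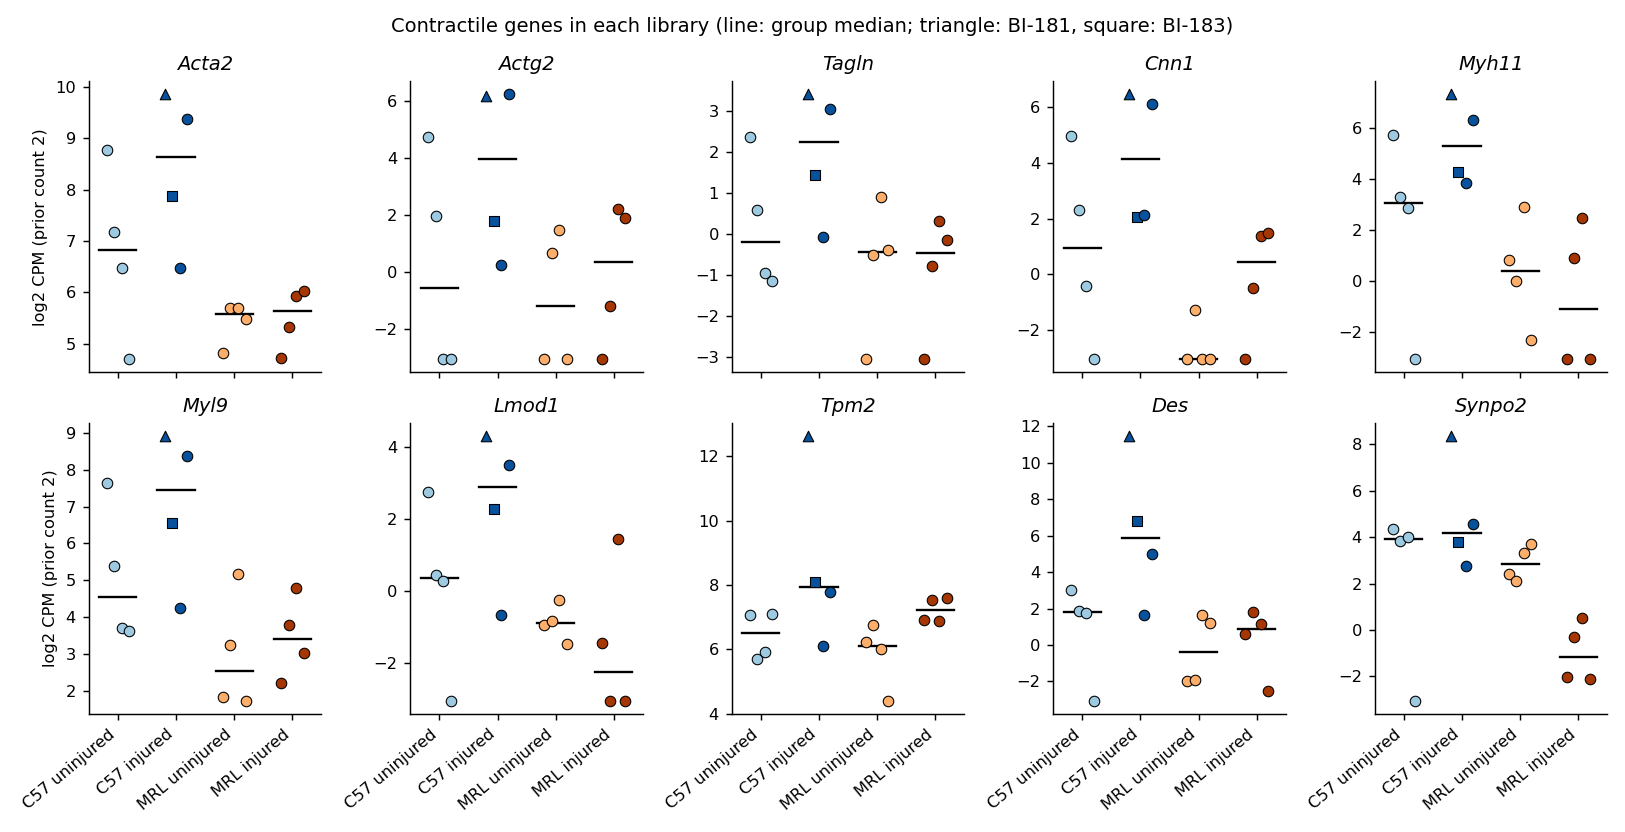
Level of each of the 10 genes in every library, as log2 CPM with a prior count of 2, by group. Each point is 1 library, the line is the group median, the triangle is BI-181 and the square BI-183. The 4 injured C57 libraries are spread widely in every panel, from 88.7 to 926 CPM for Acta2, while the 8 MRL libraries stay between 26.1 and 64.6 CPM for that gene.

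The level of Acta2 in injured C57 tendon was 926 CPM in BI-181, 235 in BI-183, 88.7 in BI-184 and 667 in BI-185. In uninjured C57 tendon it was 437, 144, 89.1 and 25.8 CPM in replicates 1 to 4. In MRL it was 26.1, 40.1, 60.8 and 64.6 CPM after injury and 28.2, 51.7, 51.4 and 44.5 CPM without injury. BI-181 and BI-185 were thus high, C57 uninjured replicate 1 stood above BI-183 and BI-184, and both MRL groups lay in 1 narrow low band. The group levels were 479 ± 386 CPM (SD, n = 4) in injured C57, 174 ± 182 in uninjured C57, 47.9 ± 18.1 in injured MRL and 43.95 ± 11.03 in uninjured MRL.

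The same order of libraries ran through the other genes of smooth muscle. Myh11, the smooth muscle myosin heavy chain, had 159 CPM in BI-181, 19.0 in BI-183, 14.0 in BI-184 and 77.9 in BI-185. Uninjured C57 replicates 1 to 4 had 52.9, 9.63, 7.11 and 0 CPM of Myh11, and no MRL library exceeded 7.40. Myl9, the regulatory light chain whose phosphorylation triggers contraction, had 485, 93.4, 19.0 and 329 CPM in the injured C57 libraries in that order. In every one of 7 genes (Acta2, Actg2, Tagln, Cnn1, Myh11, Myl9 and Lmod1) BI-181 and BI-185 were the highest libraries of all, and C57 uninjured replicate 1 came next. Cnn1, an actin-binding inhibitor of myosin, reached 88.9 CPM in BI-181 and 69.5 in BI-185 against 31.6 in C57 uninjured replicate 1 and at most 4.88 in any other library. Actg2, the gamma smooth muscle actin of the gut wall, reached 72.0 and 74.9 CPM in BI-181 and BI-185. Lmod1, a leiomodin that nucleates smooth muscle actin filaments, stayed at or below 19.7 CPM everywhere, and Tagln, the actin cross-linker transgelin, at or below 10.4 CPM.

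Tpm2, Des and Synpo2 were set apart by the size of the BI-181 value, and for Tpm2 and Des BI-183 ranked next, ahead of BI-185. Des, the intermediate filament desmin of muscle, was at 2840 CPM in BI-181, 112 in BI-183, 2.96 in BI-184 and 31.1 in BI-185, and at no more than 7.90 CPM in the other 12 libraries. Tpm2, a tropomyosin that lies along actin filaments, was at 6341, 271, 68.7 and 220 CPM in the same 4 libraries and at 21.0 to 192 CPM elsewhere. Synpo2, which cross-links actin at the Z-disc and at smooth muscle dense bodies, was at 331, 13.7, 6.67 and 23.3 CPM, and in uninjured C57 replicates 1 to 4 at 20.6, 14.2, 16.2 and 0 CPM, so that BI-181, BI-185 and C57 uninjured replicate 1 were its 3 highest libraries too. BI-181, the library richest in skeletal muscle markers, was by far the highest library for each of these 3 genes.

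**Figure D2:**
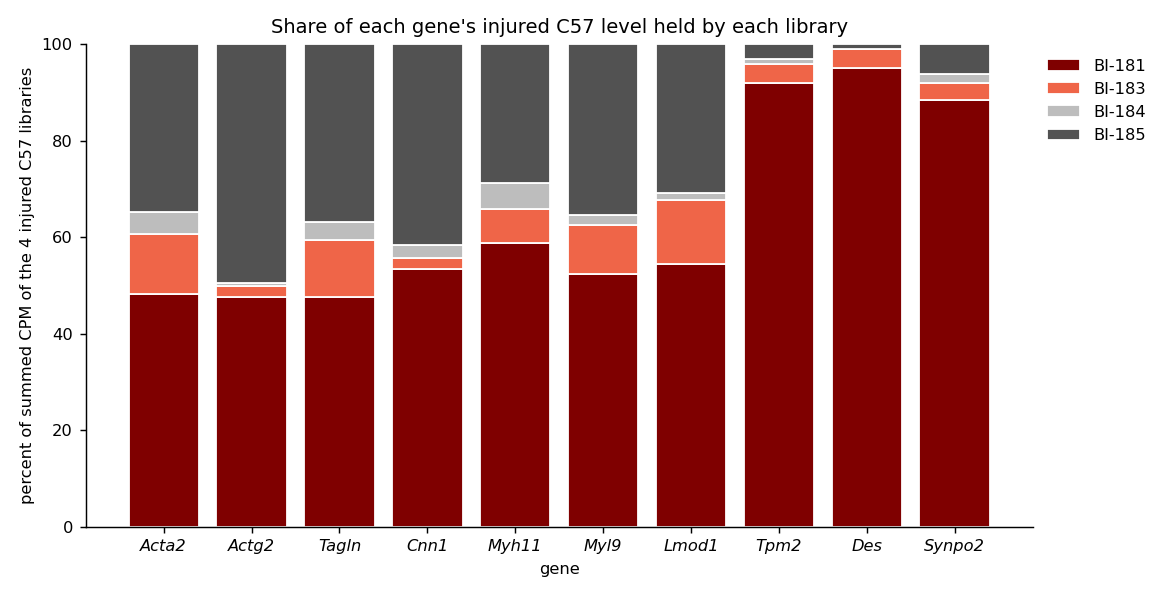
Percent of each gene's summed CPM over the 4 injured C57 libraries that each library held, as stacked bars. BI-181 holds 88.3 to 95.1% for Tpm2, Des and Synpo2, and 47.5 to 58.9% for the other 7 genes, where BI-185 holds most of the rest.

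The share of the injured C57 level that came from the muscle-rich libraries split the genes in the same way. BI-181 and BI-183 together held 95.8% of the summed CPM of Tpm2, 98.9% of Des and 92.0% of Synpo2. For the other 7 genes they held between 49.8% (Actg2) and 67.6% (Lmod1). BI-185 alone, in which Ckm, Myh1, Myh2, Myh4 and Pvalb were at 0, held 28.9 to 49.5% of those 7 genes and 1.04 to 6.23% of Tpm2, Des and Synpo2. The high level of the smooth muscle genes in BI-185 was thus measured with skeletal muscle markers at 0.00113% of its counts.

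Compared per kilobase of exon, Acta2, Tpm2 and Myl9 were the 3 most abundant of the 10 genes in every group. Median levels in uninjured C57 were 53.1 CPM per kb for Acta2, 33.6 for Tpm2 and 23.4 for Myl9, with ranges that overlapped between each pair. In injured MRL the order was Tpm2 (median 52.3, range 40.2 to 66.1 CPM per kb), Acta2 (23.0, range 11.9 to 29.4) and Myl9 (9.35, range 3.90 to 23.5). There the ranges of Tpm2 and Acta2 did not overlap, while those of Acta2 and Myl9 did. The remaining 7 genes had medians of at most 1.26 CPM per kb in injured MRL and at most 1.21 in uninjured C57. Between Tagln and Acta2 in injured C57 the gap was from a median of 2.68 to one of 205 CPM per kb, beside the exon overlap of Tagln given above.

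The first comparison asked how the genes changed with injury in C57 tendon. All 10 genes had a higher fitted level in injured than in uninjured tendon, but none passed the test, which was edgeR's quasi-likelihood test with Benjamini-Hochberg adjustment over 14424 genes, with a call where the adjusted p was below 0.05 and the log2 fold change beyond 1 in either direction. Of all genes tested, 163 were called (1.13%), 140 higher (0.971%) and 23 lower (0.159%). The median log2 fold change of the 10 genes was 2.12, beside -0.02 over all genes tested. Marker lists of other cell types had medians of like size in this comparison: 1.76 for endothelial markers (10 of 10 positive, none called), 1.99 for Schwann cell markers (6 of 6 positive, none called), 2.03 for pericyte and mural markers (9 of 12 positive, 1 called) and 2.18 for macrophage markers (10 of 10 positive, 5 called). Their part in the members' difference was not tested. The injured and uninjured values overlapped for every member, while 7.11% of all genes lay entirely higher in the injured libraries and 4.86% entirely lower. At an unadjusted p under 0.05 there were 2 members, Tpm2 and Des, and 2164 genes in all. DESeq2 called 909 genes (5.49% of those with an adjusted p) and none of the 7 members with an adjusted p, and it gave none for Tpm2, Des and Synpo2.

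Among the actin genes, Acta2 differed by a log2 fold change of 1.48 (SE 0.91, adjusted p = 0.484, edgeR) and Actg2 by 2.36 (SE 1.89, adjusted p = 0.606). Myh11 differed by 1.97 (SE 1.39, adjusted p = 0.553) and Myl9 by 1.81 (SE 1.17, adjusted p = 0.509). The 95% interval for Acta2 ran from -0.58 to 3.55, so that neither no change nor a large rise lay outside it. Des had the largest estimate, 7.68 (SE 2.36, adjusted p = 0.191), followed by Tpm2 with 4.15 (SE 1.42, adjusted p = 0.231) and Synpo2 with 2.88 (SE 1.56, adjusted p = 0.430). Cnn1, Lmod1 and Tagln had estimates of 2.19, 2.04 and 1.65, with adjusted p from 0.504 to 0.583.

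**Figure D3:**
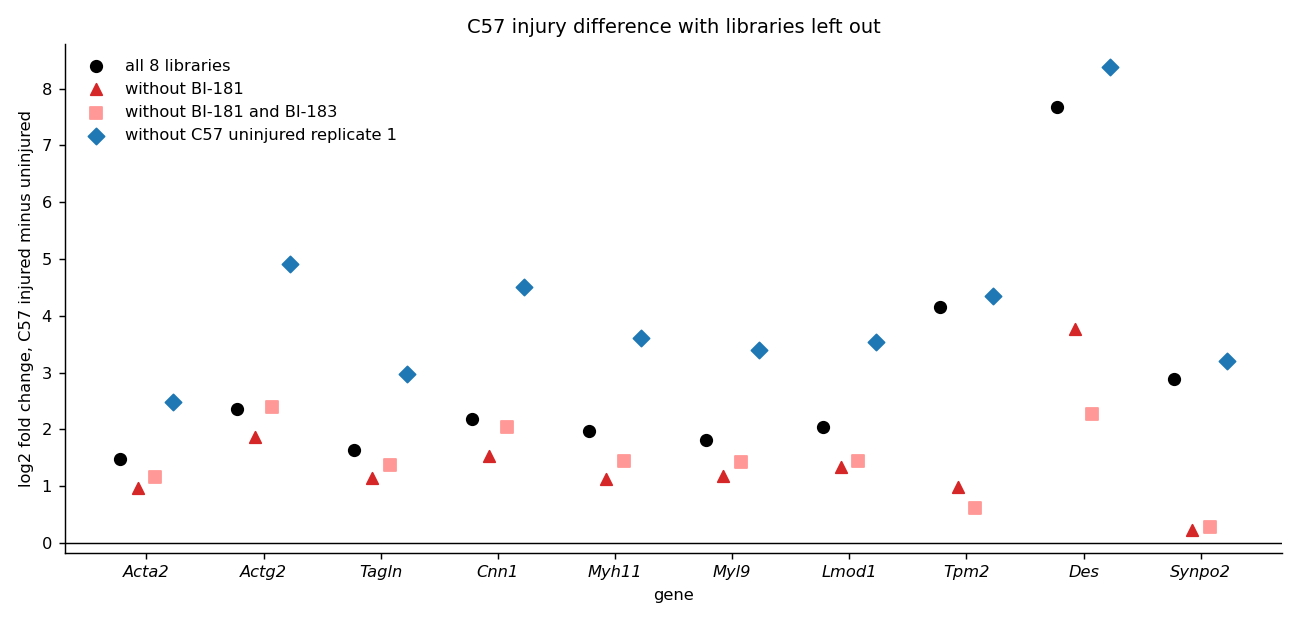
Log2 fold change of injured minus uninjured C57 tendon for each gene, with all 8 libraries and with libraries left out. Leaving out BI-181 lowers Tpm2 from 4.15 to 0.98, Des from 7.68 to 3.77 and Synpo2 from 2.88 to 0.24. It also lowers the 7 smooth muscle genes, Acta2 from 1.48 to 0.97. Leaving out C57 uninjured replicate 1 raises those 7 genes, Acta2 from 1.48 to 2.49.

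The estimates of Tpm2, Des and Synpo2 rested on BI-181. Without that library they were 0.98, 3.77 and 0.24, and without both BI-181 and BI-183 they were 0.62, 2.27 and 0.28, with adjusted p from 0.795 to 0.986 in the latter fit. The other 7 genes ranged from 0.97 (Acta2) to 1.87 (Actg2) without BI-181 alone, and from 1.17 (Acta2) to 2.39 (Actg2) without both libraries. All 10 estimates stayed positive in either fit. With log2 of the summed skeletal muscle markers as a covariate, Synpo2 stood at 0.11 and Tpm2 at 0.53, and Acta2 at 1.07. C57 uninjured replicate 1 acted in the other direction: without it Acta2 reached 2.49, Cnn1 4.51 and Actg2 4.91, and 8 members had an unadjusted p under 0.05, but none was called. With C57 uninjured replicate 4, BI-181 and BI-183 all left out, Synpo2 was at -0.13 and Acta2 at 0.81.

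In MRL tendon Synpo2 fell with injury, and no other member passed the test. Of the 8 members that passed the filter on low counts (Cnn1 and Lmod1 did not), 1 was called, beside 1057 of 14274 genes (7.41%), 750 higher (5.25%) and 307 lower (2.15%). Synpo2 had 5.24, 4.15, 9.73 and 12.8 CPM in the 4 uninjured libraries and 0.124, 0.687, 1.29 and 0.111 CPM in the 4 injured ones. These were 57 to 163 counts without injury and 2 to 29 counts after it, so every injured library lay below every uninjured one. Its log2 fold change was -3.84 (SE 0.84, adjusted p = 0.0178, edgeR), 14.3-fold lower after injury. Entirely lower values were found for 9.45% of all genes tested. The call held with each library left out in turn (adjusted p = 0.0112 to 0.04996) and was lost when all 16 libraries shared 1 fit (adjusted p = 0.136).

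Tpm2 lay entirely higher in injured MRL tendon, as did 13.3% of all genes. Its levels were 120, 184, 117 and 192 CPM after injury against 74.3, 107, 64.5 and 21.0 CPM without it. The log2 fold change of 1.21 (SE 0.39) did not pass the test in edgeR (adjusted p = 0.0734) and did in DESeq2 (adjusted p = 0.0237). Acta2 differed by 0.13 (SE 0.30, adjusted p = 0.813), with a 95% interval from -0.53 to 0.79, which leaves out changes of 2-fold in either direction. Myl9 stood at 0.05 (SE 0.78) and Myh11 at -0.50 (SE 1.58), with adjusted p of 0.973 and 0.868. Their 95% intervals were wide, from -1.66 to 1.77 for Myl9 and from -3.997 to 2.99 for Myh11. Cnn1 was counted in 3 of the 4 injured MRL libraries, at 13 to 56 counts, and in 1 of the 4 uninjured ones, at 4 counts.

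**Figure D4:**
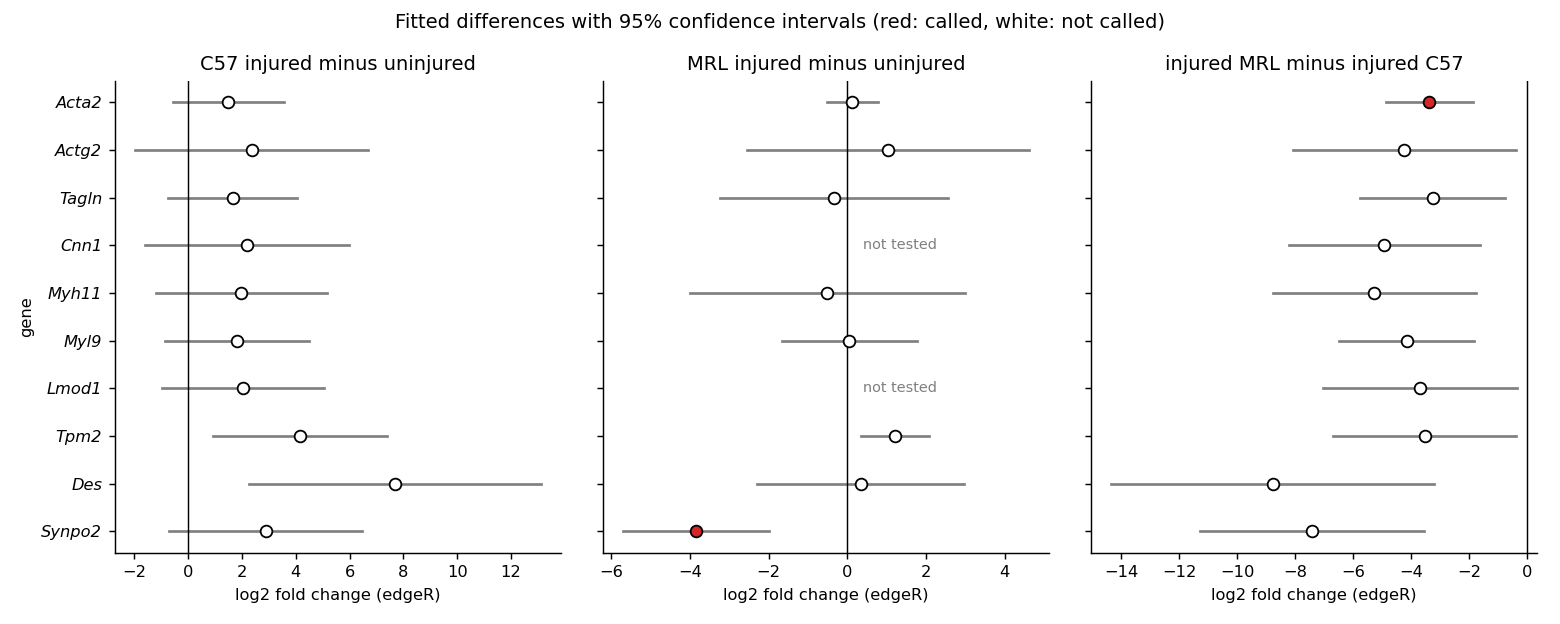
Fitted log2 fold changes (points) with 95% confidence intervals (lines) for injury in C57, injury in MRL, and injured MRL against injured C57, with red points for calls. Most C57 intervals include 0. In MRL only Synpo2 (-3.84) is called, and in the comparison of the injured strains every point lies below 0 with Acta2 (-3.38) called.

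The difference of the injury response between strains was tested directly as an interaction over all 16 libraries. No gene of 15947 was called (0%), with 1974 at an unadjusted p under 0.05 and a smallest adjusted p of 0.318, so a strain-specific response of single members was not detectable in this test. DESeq2 called 212 genes (1.23% of those with an adjusted p), among them Synpo2 (adjusted p = 0.0321). In edgeR, Synpo2 had an interaction estimate of -6.70 (SE 1.98, adjusted p = 0.318) and Des one of -7.32 (SE 2.58, adjusted p = 0.330). Without BI-181 these were -4.08 and -3.44, and without BI-181 and BI-183 they were -4.11 and -1.92. Acta2 had -1.34 (SE 1.04, adjusted p = 0.653). With 1 library left out its estimate ran from -2.35 (without C57 uninjured replicate 1) to -0.85 (without BI-181).

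In uninjured tendon all 8 members that could be tested were lower in MRL than in C57, and none was called, as was no gene of the 14055 tested (0%). The median log2 difference of the 8 members was -2.13, beside -0.02 over all genes. Medians were -1.06 for endothelial markers (9 of 10 lower), -0.98 for pericyte and mural markers (5 of 9 lower) and -0.82 for Schwann cell markers (3 of 4 lower). Macrophage markers were at -0.01 (5 of 10 lower) and tendon markers at 0.54 (0 of 8 lower). The part of these markers in the members' difference was not tested. Acta2 had the lowest unadjusted p of the members, 0.0214, with a difference of -1.98 (SE 0.71, adjusted p = 0.622, edgeR). The values of every member overlapped between the strains, while 2.92% of all genes were entirely higher and 2.08% entirely lower in MRL. DESeq2 called 101 genes (0.629% of those with an adjusted p) and none of the 10 members, each of which had an adjusted p there. The estimates hung on C57 uninjured replicate 1, since Acta2 was at -0.97 and Myl9 at -0.78 without it, compared with -1.98 and -2.37 with it. Without C57 uninjured replicate 4, the library with the epidermal markers, Acta2 was at -2.35 and Lmod1 at -2.70, and 4 members had an unadjusted p under 0.05 in place of 1. That library held 0 counts of Actg2, Cnn1, Des, Lmod1, Myh11 and Synpo2.

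The comparison of the injured strains bears on the study's question of how far myofibroblast activation, which it examined by staining alpha smooth muscle actin, differed between healing C57 and MRL tendon. It uses the same injured libraries as the comparisons above, and the reads of both strains were aligned to the reference genome, which derives from C57BL/6J, so an effect of sequence differences on the MRL counts was not tested. All 10 members were lower in injured MRL than in injured C57 tendon, with a median log2 difference of -4.20 beside -0.06 over all genes tested. Each had an unadjusted p under 0.05, as had 3103 of 14626 genes, but after adjustment only Acta2 was called, beside 502 genes in all (3.43%), 227 higher (1.55%) and 275 lower (1.88%). DESeq2, which gave no adjusted p for Tpm2, Des and Synpo2, called 5 of the other 7 members (Acta2, Myl9, Tagln, Cnn1 and Myh11), beside 1488 genes or 8.48% of those with an adjusted p. In a bulk sample, fewer cells of a type and less RNA per cell cannot be told apart.

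Acta2 was 10.4-fold lower in injured MRL, a log2 difference of -3.38 (SE 0.67, adjusted p = 0.0258, edgeR), and the highest MRL library (64.6 CPM) lay below the lowest C57 library (88.7 CPM). Entirely lower values in MRL were also found for Cnn1, Myh11 and Synpo2, and for 7.41% of all genes, with 8.92% entirely higher. The log2 differences of these 3 genes were -4.93 (SE 1.44, adjusted p = 0.102), -5.28 (SE 1.52, adjusted p = 0.101) and -7.41 (SE 1.67, adjusted p = 0.0530). Myh11 was at 0 counts in BI-270 and BI-275, and Cnn1 in BI-270. Myl9 differed by -4.16 (SE 1.02, adjusted p = 0.0622). Tpm2 and Des were at -3.54 (adjusted p = 0.191) and -8.77 (adjusted p = 0.0914), and without BI-181 at -0.35 and -4.85.

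The Acta2 call was near its threshold. It was lost without BI-185 (adjusted p = 0.0703), without any one of the 4 injured MRL libraries (0.0605 to 0.0874), with no filter on low counts (0.0979) and without BI-181 and BI-183 (0.106), while its estimate stayed between -3.67 and -2.85 in all alternatives. Without BI-181 alone it was kept (adjusted p = 0.0413) and Synpo2 was called as well (-4.76, adjusted p = 0.0253). Without both muscle-rich libraries Tpm2 was at 0.02 (adjusted p = 0.990), and the other 9 members still lay lower in MRL, from -4.80 (Synpo2) to -2.98 (Tagln).

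Most markers of vessel wall, endothelium and nerve sheath differed in the same direction between the injured strains. The 12 pericyte and mural markers summed to 0.0507 to 0.0645% of counts in injured C57 and 0.0316 to 0.0472% in injured MRL. Of these 12, 10 were lower in MRL and 3 were called, beside 1.88% of all genes called lower: Rgs5 (-2.67, adjusted p = 0.00169), Mcam (-5.80, adjusted p = 0.0146) and Notch3 (-3.24, adjusted p = 0.0272). The other 2, Cspg4 and Cox4i2, ran higher in injured MRL and made up much of its sum. Cspg4 was at 169 to 267 CPM there and at 101 to 163 in injured C57. Cox4i2 was at 50.5 to 159 CPM in injured MRL and at 21.8 to 71.5 in injured C57. In BI-270 Kcnj8, Abcc9, Higd1b, Vtn and Gja4 were at 0, while Cspg4 was at 169, Pdgfrb at 72.7, Cox4i2 at 50.5 and Rgs5 at 15.6 CPM. All the genes at 0 in BI-270 had counts in BI-274 and BI-275.

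The 10 blood endothelial markers summed to 0.0158 to 0.0297% in injured C57 and 0.000548 to 0.00390% in injured MRL, all 10 were lower in MRL, and 4 were called, beside the same 1.88% of all genes: Pecam1, Cldn5, Egfl7 and Esam. Cdh5, Kdr, Tek, Emcn, Cldn5 and Tie1 were at 0 in BI-270. The other injured MRL libraries had counts of each, except for Cldn5 in BI-275. The Schwann cell markers summed to 0.0997 to 0.213% in injured C57 and 0.0508 to 0.0926% in injured MRL, with 2 of 6 tested called lower, Prx and Sox10, and with Sox10 at 0 in BI-272 and BI-275. Macrophage markers summed to 0.426 to 0.862% in injured C57 and 0.319 to 0.623% in injured MRL, with 3 of 10 called lower, and tendon markers to 2.67 to 5.13% and 5.53 to 8.16%. The part of these marker differences in the difference of the contractile genes was not tested. These marker genes were picked for naming after their values were seen. Of the 9 named here as called among pericyte, endothelial and Schwann cell markers, 3 stayed called without BI-181 (Rgs5, Mcam and Esam) and 1 without BI-181 and BI-183 (Rgs5), all 9 with estimates below 0 in both fits.

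**Figure D5:**
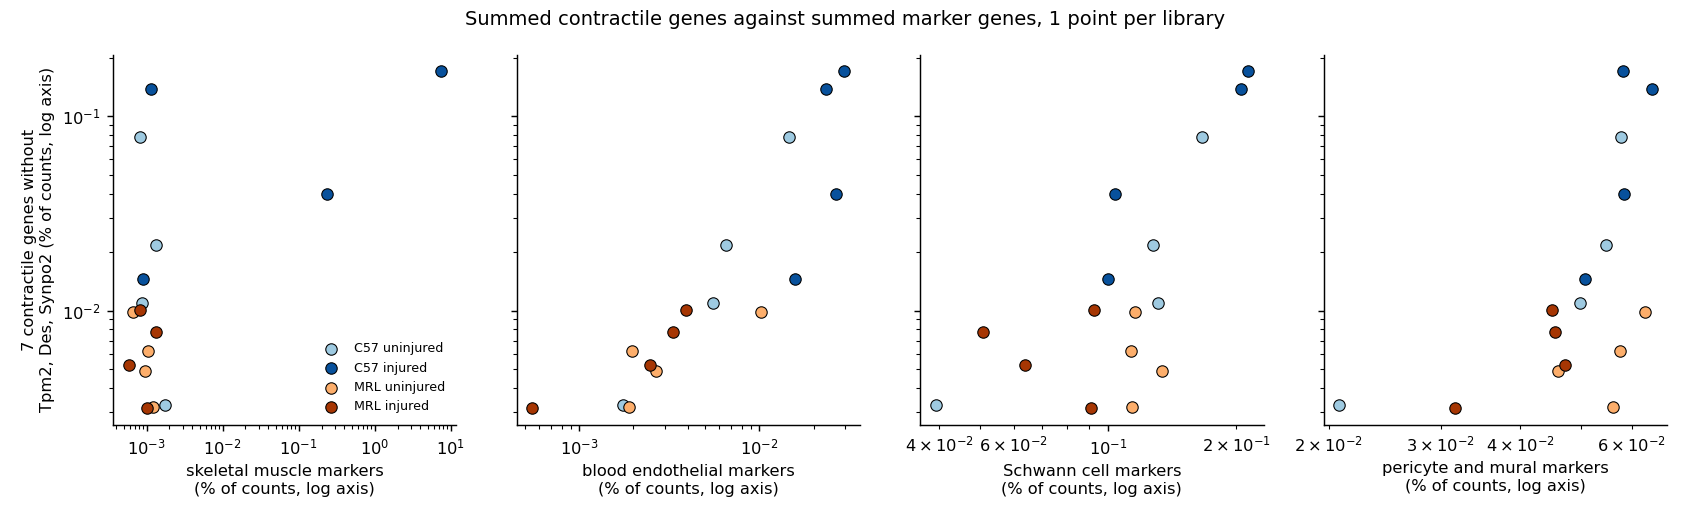
Summed counts of the 7 contractile genes other than Tpm2, Des and Synpo2 against summed counts of 4 marker lists, each as percent of library counts on log axes, with 1 point per library. The 3 libraries with the highest contractile sum (0.170, 0.139 and 0.0787%) are BI-181, BI-185 and C57 uninjured replicate 1, which also have the 3 highest Schwann cell sums, and of these only BI-181 is high in skeletal muscle markers.

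Within C57, the 3 libraries highest in the contractile genes were also the 3 highest in Schwann cell markers. These markers took 0.213% of the counts of BI-181, 0.206% of BI-185 and 0.166% of C57 uninjured replicate 1, and at most 0.134% elsewhere. BI-181 was also the highest of all 16 libraries in endothelial markers (0.0297%), followed by BI-183 (0.0267%), BI-185 (0.0234%), BI-184 (0.0158%) and C57 uninjured replicate 1 (0.0146%). BI-185 was the highest of all in pericyte and mural markers (0.0645%), and among the C57 libraries BI-183 (0.0583%), BI-181 (0.0582%) and C57 uninjured replicate 1 (0.0578%) came next. The gene Postn, a matrix gene of activated fibroblasts, went the other way, with 71.8 CPM in BI-181 and 63.2 in BI-185 but 1710 in BI-183 and 1134 in BI-184. Among injured C57 tendons the libraries highest in Acta2 were thus not the libraries highest in Postn.

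The genes most like Acta2 over the 16 libraries, by Pearson's r of log2 CPM among 15946 genes, were Cnn1 (r = 0.93), the Schwann cell transcription factor Sox10 (0.93), Myl9 (0.93), 4930578C19Rik (0.92) and the potassium channel Kcna5 (0.92). Without BI-181 and BI-185, the 2 libraries farthest from the median of Acta2, r was 0.83 to 0.88 for these 5 genes, and within the 8 MRL libraries it was 0.23 to 0.70. For Myh11 they were the endothelial tight junction gene Cldn5 (r = 0.96), Itga7 (0.91), Gucy1b3 (0.91), Mpped2 (0.91) and Osr1 (0.89), with r of 0.86 to 0.95 without BI-270 and BI-275, the 2 farthest, and 0.66 to 0.98 within MRL. Tagln ranked 8th and Tpm2 787th in likeness to Acta2 (r = 0.91 and 0.60). These values describe 16 libraries that differ in strain, injury and tissue content, and carry no test.

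The related cytoskeletal genes gave a background to the members. The ubiquitous cytoplasmic actin Actb lay entirely higher in injured MRL tendon (1935 ± 528 against 1045 ± 190 CPM, log2 fold change 0.90, SE 0.23, adjusted p = 0.0338), below the fold threshold of a call. In C57 Actb differed by 0.28 (adjusted p = 0.567). Actg1, the other cytoplasmic actin, differed by 0.19 in MRL and -0.09 in C57 (adjusted p = 0.465 and 0.868). The skeletal muscle actin Acta1 was at 25336 CPM in BI-181, 755 in BI-183 and at most 0.690 CPM in the other injured libraries. The cardiac actin Actc1, at 22.5 CPM in BI-181 and 0.842 to 1.86 in the other injured C57 libraries, was called lower in injured MRL (-7.77, adjusted p = 0.0294), where 3 of 4 libraries were at 0. That call was lost without BI-181 (-5.37, adjusted p = 0.0794).

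Among the tropomyosins, Tpm1, Tpm3 and Tpm4 also lay entirely higher in injured MRL tendon, with log2 fold changes of 0.77 (SE 0.16, adjusted p = 0.0147), 0.76 (SE 0.13, adjusted p = 0.00630) and 0.87 (SE 0.15, adjusted p = 0.00551), all short of the fold threshold. In C57, Tpm1 had 10016 CPM in BI-181 and 270 to 572 in the other injured libraries, against 63.1 to 242 without injury (log2 fold change 4.09, SE 1.29, adjusted p = 0.197). Without BI-181 the estimate for Tpm1 was 1.24 (SE 0.45, adjusted p = 0.327). Tpm3 and Tpm4 differed by 0.47 and 0.29 in C57 (adjusted p = 0.286 and 0.657).

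Of 32 other contractile and actin-associated genes, 30 were tested in each injury comparison. None was called in C57, beside 1.13% of all genes, and 22 of the 30 had a positive estimate, with a median of 0.56. In MRL 2 rose and 3 fell, beside 5.25% of all genes called higher and 2.15% lower, with a median of -0.03. The genes that rose were Actn1, an actin cross-linker of adhesions (41.8 CPM after injury and 12.4 without it, log2 fold change 1.76, adjusted p = 0.00172), and Fhl2, a cofactor at focal adhesions (1.98, adjusted p = 0.0141). Those that fell included Mylk, the kinase that phosphorylates Myl9 (-1.69, adjusted p = 0.0384), and Pdlim3 (-2.34, adjusted p = 0.0338). Between the injured strains, Filip1l was the 1 of 31 called, a share close to the 3.43% of all genes, lower in MRL (-1.66, adjusted p = 0.00552), a call lost without BI-181 and BI-183 (-1.29, adjusted p = 0.0687).

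Among the regulators of the smooth muscle programme, Srf, the serum response factor gene, differed by 0.36 in C57 and 0.26 in MRL (adjusted p = 0.701 and 0.717). Myocd, the cofactor myocardin, was scarce, at 0.440 to 2.24 CPM in injured C57 and at 0 in 3 of 4 injured MRL libraries, where the comparison did not pass the filter. The myocardin-related factor genes were listed under the older symbols Mkl1 (Mrtfa) and Mkl2 (Mrtfb). Mkl1 differed by 0.47 in C57 and 0.58 in MRL (adjusted p = 0.582 and 0.314), and Mkl2 by 0.45 and -0.30 (adjusted p = 0.429 and 0.467). Mkl2 lay entirely lower in injured MRL than in injured C57 (15.5 ± 3.10 against 28.2 ± 2.58 CPM, log2 difference -0.92, SE 0.22, adjusted p = 0.0479), below the fold threshold, with an adjusted p of 0.0765 without BI-181.

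Of 25 regulators, 24 were tested in C57 and none was called, beside 1.13% of all genes. In MRL 3 of the 22 tested were called, beside 7.41% of all genes. Tgfb1 rose (71.7 ± 24.7 against 34.2 ± 7.63 CPM, log2 fold change 1.07, SE 0.25, adjusted p = 0.0241), and Tgfb3 and Klf4, a repressor of smooth muscle genes, fell (-1.12 and -1.35, adjusted p = 0.0386 and 0.0255). In C57 Tgfb1 differed by 0.59 (SE 0.36, adjusted p = 0.476), and the interaction for it had an adjusted p of 0.715.

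Of 16 matrix genes that accompany myofibroblasts, 6 were called higher and none lower in MRL, beside 5.25% of all genes called higher, and 15 of 16 estimates were positive, with a median of 0.89. The largest were Tnc (6.67, adjusted p = 0.000876), Cthrc1 (6.14, adjusted p = 0.000273) and Lrrc15 (5.27, adjusted p = 0.00606). In C57 all 16 estimates were positive, with a median of 0.65, and Postn alone was called, beside 0.971% of all genes called higher (745 CPM on average after injury and 6.16 without it, log2 fold change 6.94, SE 1.25, adjusted p = 0.0448). The Postn call was lost without BI-181 and BI-183 (6.63, adjusted p = 0.178) and without C57 uninjured replicate 4 (6.81, adjusted p = 0.0851). Between the injured strains none of the 16 was called in edgeR or DESeq2, and 11 of 16 estimates were higher in MRL. Of the 12 pericyte and mural markers, Rgs5 was called higher after injury in C57 (1.68, adjusted p = 0.0374) and Pdgfrb, tested among 8 in MRL, lower (-1.01, adjusted p = 0.0275). The Rgs5 call was lost without BI-181 (1.54, adjusted p = 0.0789) and without BI-181 and BI-183 (1.51, adjusted p = 0.328).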

How the data were processed

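The deposited table held raw counts, whole numbers of reads per gene symbol, which the authors made from single-end reads of 100 nt with Trimmomatic 0.36 and STAR 2.5.2b against GRCm38.p5. The submitters' processing notes also list featureCounts from Subread 1.5.0p3 and DESeq2 1.14.1, while the annotation and strand setting are not given in the sources used here. The study's methods describe pre-amplified cDNA libraries and the labels another kit, and that difference could not be settled. All 16 sample columns were used.

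Counts were tested in edgeR 4.0.16 (R 4.3.3, robust quasi-likelihood test, filterByExpr, TMM), with Benjamini-Hochberg adjustment over all genes tested. Injury was compared within each strain on 8 libraries, strain within uninjured and within injured tendon on 8, and the interaction on all 16. Genes were called where the adjusted p was below 0.05 and the log2 fold change beyond 1 in either direction, and in the interaction on the adjusted p alone. Groups came from the strain and time point of the labels, and n = 4 animals a group. The scripts were tested on simulated data. DESeq2 1.42.0, other scalings, other filters and left-out libraries were run as alternatives, as was a block on replicate number.

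The 10 members, the gene lists and the alternatives were chosen with earlier results of these data known. Named beside the members were all actin isoforms and tropomyosins, Srf, Myocd, Mrtfa, Mrtfb and Tgfb1, up to 3 called genes a direction in each injury comparison from the contractile, regulator, matrix and pericyte lists (1 such gene is not reported here), and the 5 genes most like Acta2 and Myh11. Exon lengths and overlaps came from GENCODE M21 and promoter windows from RefSeq. Replicate numbers did not pair the uninjured libraries of the strains, because same-numbered libraries came from different animals. The correlation of deviations from the group mean ran from -0.26 to 0.02 for same-numbered libraries and from -0.23 to 0.26 for the others. These correlations cannot decide a pairing. Skeletal muscle, epidermal, pericyte, endothelial, macrophage, tendon and Schwann cell markers were summed per library as percent of its counts.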

Additional observations from a re-analysis of the deposited data

Results flagged for a closer look

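Each member's log2 CPM (prior count 2) was screened for a library far from the rest of its group, and flagged values are given as CPM. The screen covered all 40 combinations of 10 genes and 4 groups, of which chance alone marks about 1 in 20, and 2 were marked. Cnn1 in uninjured MRL tendon had 1 library, replicate 2, at 0.291 CPM (4 counts) with the other 3 at 0 CPM, which lies near the limit that a count of 0 allows. Synpo2 in uninjured C57 tendon was at 0 CPM in replicate 4, the library with 9.70% epidermal marker counts, while the next lowest of that group had 14.2 CPM.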

How the results depend on the processing

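No member with an adjusted p was called for injury in C57 under any alternative run (DESeq2 gave none for Tpm2, Des and Synpo2), and the 10 estimates stayed positive except Synpo2, at -0.13 without C57 uninjured replicate 4, BI-181 and BI-183. Over all genes, the C57 count of 163 calls was 909 with DESeq2, 107 with upper-quartile factors, 262 with at least 10 counts in every library (3 members tested), 364 with all 16 libraries in 1 fit, 44 with the skeletal muscle covariate, 459 without those 3 libraries and 0 without BI-181 and BI-183, and it ran from 15 to 752 with 1 library left out, the last without C57 uninjured replicate 4. For injury in MRL, DESeq2 gave 1818 genes (11% of those with an adjusted p) and 2 members, leaving out 1 library gave 689 to 1260 genes, and no member was called with at least 10 counts in every library, which removes Synpo2, or with all 16 libraries in 1 fit (0 members). With 1 library left out, MRL estimates crossed 0 for Acta2 (-0.054 to 0.31), Myl9 (-0.55 to 1.32), Des (-0.18 to 1.09), Tagln (-0.84 to 0.51) and Myh11 (-2.11 to 1.01). In the interaction DESeq2 called 212 genes and 1 member, Tpm2 turned to 0.59 without BI-181 and BI-183 and to 0.36 with C57 uninjured replicate 4 left out as well, and the ranges with 1 library left out were -3.36 to 0.21 for Tpm2 and -0.28 to 5.43 for Cnn1. In uninjured tendon DESeq2 called 101 genes, no filter 1, at least 10 counts in every library 1, and 1 library left out 0 to 3. With replicate number as a block (replicate block), 0 genes and 0 members were called in uninjured tendon and the members' median was -1.31, where the samples share only a number. Between injured strains, DESeq2 called 1488 genes and 5 members of the 7 with an adjusted p, total counts 2 members, no filter 0 members, and leaving out BI-181 and BI-183 gave 112 genes and 0 members, with Tpm2 at 0.022; with 1 library left out the counts were 231 to 455 genes and 0 to 3 members. Total-count scaling there gave 177 of 526 calls higher in MRL, in place of 227 of 502, and a median over all genes of -0.17. The cause of these shifts was not tested. No paired analysis was possible for the injured groups because the labels give the injured libraries no replicate number, and the numbers used here follow accession order and only name them. Low counts limit Cnn1, Lmod1, Tagln, Actg2 and Myh11 in MRL, where several libraries held 0 counts. Named genes other than members were refitted without BI-181, BI-183 or C57 uninjured replicate 4, a choice made after the data were seen.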
